A study of Homo sapiens with 6 samples.

Results

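The lysosomal gene set described here held 50 genes. It comprised the TFEB family of transcription factors, lysosomal proteases, glycosidases, sulfatases, lipid-degrading enzymes, lysosomal membrane proteins and subunits of the vacuolar proton pump. Members were taken by gene symbol from the platform annotation of the array, and all 50 were measured among 18404 genes. Each was read from the single probe set that the annotation paired with that gene alone. The cells were MDA-MB-231, a widely used line that was derived from triple-negative human breast cancer, and 6 arrays were run. The glucose group (3 arrays) was grown in medium with 25 mM glucose and the fructose group (3 arrays) in medium with 10 mM fructose, each for 25 days with regular passage. Replicates were adapted to their sugar independently of one another. RNA was collected some 24 hours after the last medium change, when cultures were about 70% confluent. An array averages over all cells of a culture, so that more mRNA per cell and more expressing cells cannot be told apart. Sugar type, concentration and the lack of glucose differ jointly between the groups and cannot be told apart, and the groups share 1 cell line. The series title frames the comparison as one of restricted glycolysis.

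Lysosomes are acidic compartments in which proteins, glycans, lipids and nucleic acids are broken down. Most of their soluble hydrolases are made as precursors, tagged with mannose phosphate and sorted from the Golgi, while the vacuolar H+-ATPase (V-ATPase) pumps in the protons that the enzymes need. TFEB, TFE3 and MITF are related basic helix-loop-helix factors that bind an E-box element in the promoters of many lysosomal genes. They are held in the cytoplasm when the kinase mTORC1, which is recruited to the lysosomal surface by the Rag GTPases, phosphorylates them. Their activity is therefore set largely at the level of the protein, and an array measures only their mRNA.

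The E-box core is CACGTG, and the longer element preferred by the TFEB family extends it to TCACGTGA. Promoter windows of 300 bases (250 before the gene start and 50 after it) from RefSeq, build GRCh38.p14, were found for 34 of the 50 members and for 27305 genes in all. Both motifs read the same on either strand, and the longer contains the shorter. CACGTG was present in 10 of the 34 member promoters (29.4%) and in 7.43% of all promoters, which were not limited to genes measured on the array. TCACGTGA was present in 7 (20.6%) against 1.04%. Among the member promoters searched, CACGTG was in 2 of 10 whose gene was higher in fructose at an unadjusted p under 0.05, in 0 of 1 whose gene was lower, and in 8 of 23 of the others. The longer TCACGTGA was in 0 of those 10 and in 7 of those 23. LAMP1, which had 6 copies of CACGTG, differed by 0.00 between the sugars. A match is a run of letters and not a measured binding site.

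The 4 promoters below belong to the members with the smallest p among those that hold CACGTG. Of these, NEU1 and CTSD had an unadjusted p under 0.05, and GAA and ATP6V0D1 carry the longer element. Of the other members under that p, LAPTM5, TPP1, IDUA, CTSC, TFE3, ATP6V1E1, SMPD1, ATP6AP1 and CTSH had no CACGTG in their windows. No window was found for CTSS, SGSH, HEXA, ASAH1 and PSAP. Each line gives the 250 bases before the gene start, 5′ to 3′ on the gene's strand, with CACGTG in capitals. The windows are chr6:31862822-31863071 (minus strand) for NEU1, chr11:1763928-1764177 (minus) for CTSD, chr17:80101331-80101580 (plus) for GAA and chr16:67481158-67481407 (minus) for ATP6V0D1.
NEU1: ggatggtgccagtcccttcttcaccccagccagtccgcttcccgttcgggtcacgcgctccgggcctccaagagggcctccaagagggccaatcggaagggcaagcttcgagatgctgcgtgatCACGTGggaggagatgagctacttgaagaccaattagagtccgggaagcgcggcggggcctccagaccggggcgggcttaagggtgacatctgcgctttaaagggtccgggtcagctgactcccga
CTSD: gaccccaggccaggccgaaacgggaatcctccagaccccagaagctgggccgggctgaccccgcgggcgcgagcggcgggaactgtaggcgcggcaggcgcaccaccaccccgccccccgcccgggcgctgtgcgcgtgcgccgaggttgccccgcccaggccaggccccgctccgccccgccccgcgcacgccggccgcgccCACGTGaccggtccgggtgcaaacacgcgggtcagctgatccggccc
GAA: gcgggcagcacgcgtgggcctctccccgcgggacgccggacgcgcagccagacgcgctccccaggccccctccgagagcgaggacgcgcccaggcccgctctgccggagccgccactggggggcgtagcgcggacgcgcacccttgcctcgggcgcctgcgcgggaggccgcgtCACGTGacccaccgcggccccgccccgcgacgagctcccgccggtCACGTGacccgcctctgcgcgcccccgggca
ATP6V0D1: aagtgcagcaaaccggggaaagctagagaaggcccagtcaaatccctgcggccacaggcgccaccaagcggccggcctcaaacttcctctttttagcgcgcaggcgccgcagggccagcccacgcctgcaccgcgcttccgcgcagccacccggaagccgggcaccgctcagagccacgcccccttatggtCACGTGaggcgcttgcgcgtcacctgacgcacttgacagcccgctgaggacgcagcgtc
The core begins 126 bases before the gene start in NEU1, 47 in CTSD, 76 and 31 in GAA, and 59 in ATP6V0D1.

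Over all 50 members, mRNA levels tended to be slightly higher in fructose, and the enzymes that stood furthest from their glucose level were the proteases CTSS, CTSD and TPP1 and the sialidase NEU1, together with the membrane protein LAPTM5. The median log2 difference (fructose minus glucose) was 0.09, beside 0.02 over all genes, and 38 members were higher and 12 lower (56.5% of all genes were higher). With every array shifted to a common median these counts were 34 and 16, and CTSL, LAMP1, CLN3 and ATP6V0A1 changed sign. The shift moves all genes, and the 56.5% was read without it. At an unadjusted p under 0.05, 11 members were higher and 1 lower after the shift, where 5.71% and 6.28% of all genes were. No member passed the test over all 28230 probe sets (limma with Benjamini-Hochberg adjustment, threshold 0.05), where the smallest adjusted p was 0.13 and 0.00354% of probe sets, a single one, was called. At an unadjusted p under 0.05, 15 members were higher, or 30.0%, where 8.53% of all genes were. At the same p, 1 member was lower, where 5.74% of all genes were. After repeated quantile normalization 14 members were higher and 3 lower, where 7.71% and 6.84% of all genes were. Members were mostly bright, 46 of 50 lying above the median probe set, and among genes that bright 10.6% were higher and 7.77% lower at that p. The arrays of the sugars did not overlap in 20 members that were higher in fructose (40.0%) and in 3 that were lower. Over all genes 13% were higher without overlap and 10% lower, and over the bright genes 16.6% and 14.1%.

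**Figure D1:**
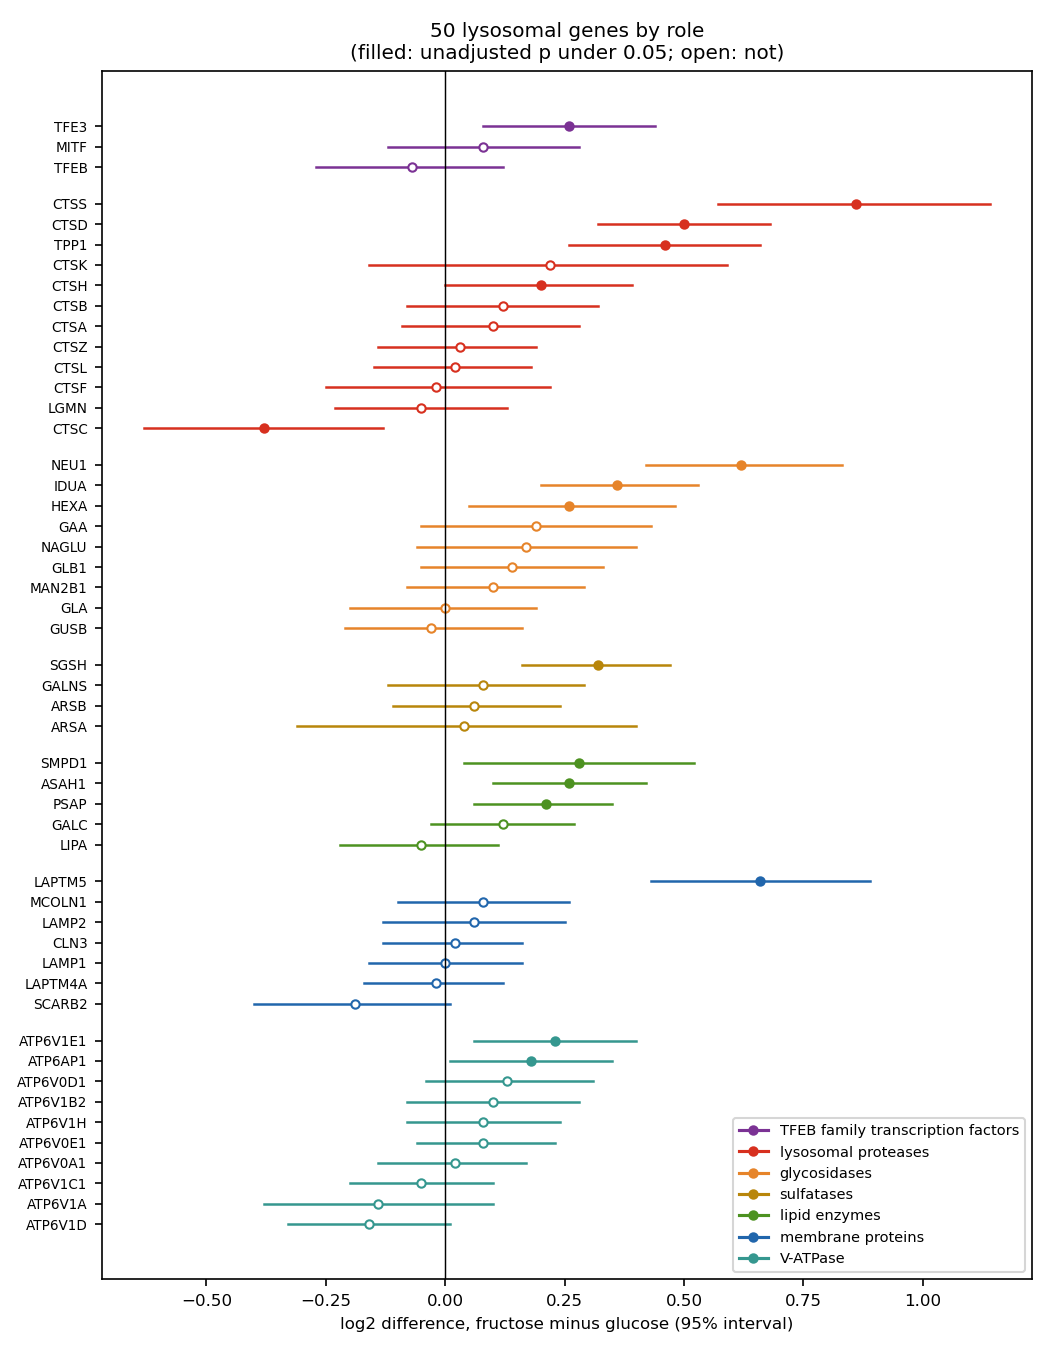
Log2 difference (fructose minus glucose) of each of the 50 lysosomal genes on the x axis with its 95% interval, coloured and grouped by role (n = 3 arrays per sugar). Filled points had an unadjusted p under 0.05; CTSS at 0.86 and CTSC at -0.38 mark the ends of the range.

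The adjusted calls differed between settings, and the cause was not tested. Among probe sets brighter than the median alone, 7 of 46 members passed (CTSS, CTSD, TPP1, NEU1, IDUA, SGSH and LAPTM5), where 2.5% of genes did. CTSS passed that brightness limit, a mean log2 of 5.01 over the 6 arrays, only through its fructose arrays (mean 4.64 in glucose and 5.49 in fructose), so its call there is not independent of the difference. With an intensity trend and robust variances 6 passed (CTSS, CTSD, TPP1, NEU1, PSAP and LAPTM5), where 2.11% of genes did. Leaving CTSS aside, CTSD, TPP1, NEU1 and LAPTM5 were called in both. All members called in either setting were higher in fructose. When each gene was tested once, with its probe sets averaged, CTSS and NEU1 passed with an adjusted p of 0.046 each, where 0.19% of genes did. The other 12 alternatives gave 0 calls among the members.

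The 50 members were also read array by array, as deviations from their glucose means. Their median deviation on fructose replicate 1 was 0.13, on replicate 2 it was 0.10 and on replicate 3 it was 0.04, whereas glucose arrays lay between -0.01 and 0.01. Fructose replicate 3 thus stood nearest to glucose for this set. In a principal component analysis of all tested probe sets it was fructose replicate 2, at 5.67 on the first component, that lay nearest to the glucose arrays (-14.8 to -13.5), with the other fructose arrays at 17.9 and 19.3. Without fructose replicate 2 the members' median was 0.09. At an unadjusted p under 0.05, 11 members were then higher and 3 lower, where 9% and 5.97% of all genes were. Without fructose replicate 1 these counts were 10 and 1, where 6.09% and 4.6% of all genes were.

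**Figure D2:**
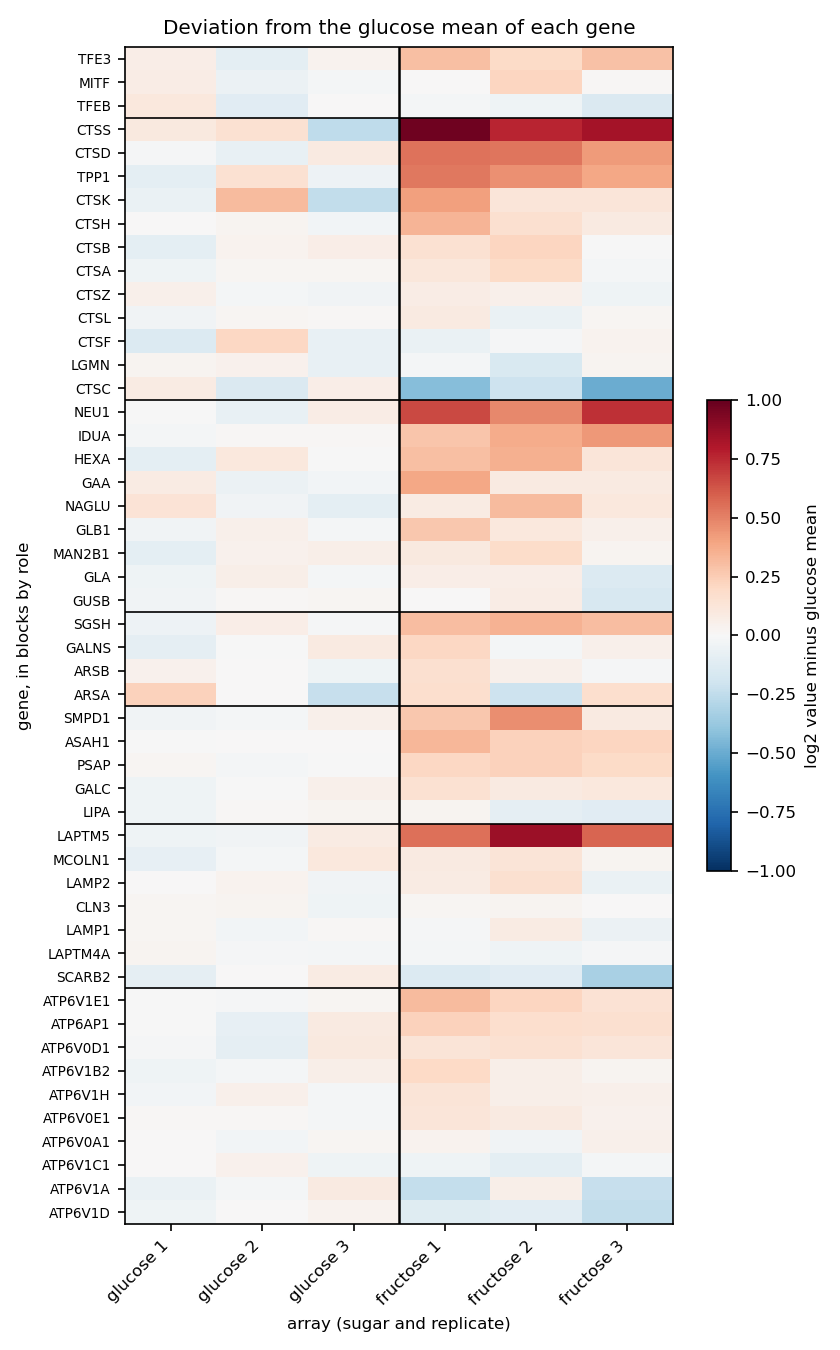
Deviation of each gene (y axis, in blocks by role) from its mean on the glucose arrays, on the log2 scale by colour, for the 6 arrays on the x axis. CTSS, CTSD, TPP1, NEU1 and LAPTM5 are higher on all 3 fructose arrays, whereas most membrane proteins and pump subunits lie near 0.

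Of the 3 transcription factors, TFE3 was the one whose arrays did not overlap. The family's median difference of 0.08 was 0.01 without fructose replicate 2. TFE3, which shares targets with TFEB and is widely expressed, had log2 intensities of 6.71, 6.55 and 6.68 in glucose and 6.95, 6.84 and 6.94 in fructose. Each fructose array lay above each glucose array. The difference was 0.26 (SE 0.08, 95% interval 0.08 to 0.44, limma adjusted p = 0.24). MITF, the factor best known from melanocytes, had 7.28, 7.15 and 7.19 in glucose and 7.21, 7.42 and 7.22 in fructose. Its groups overlapped, since fructose replicate 2 alone exceeded the glucose arrays, and its difference was 0.08 (95% interval -0.12 to 0.28). TFEB itself had 5.06, 4.84 and 4.96 in glucose and 4.93, 4.91 and 4.81 in fructose. It was dimmer than the median probe set (5.01), overlapped between the sugars and differed by -0.07 (95% interval -0.27 to 0.12).

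Among the 12 proteases, 4 were higher (33.3%) and 1 lower at an unadjusted p under 0.05, where 8.53% and 5.74% of all genes were. The median difference was 0.11. Omitting fructose replicate 3 gave a median of 0.17, and omitting fructose replicate 2 gave 0.06. CTSS encodes cathepsin S, a cysteine protease best known from antigen-presenting cells. Its log2 intensities were 4.74, 4.79 and 4.39 in glucose and 5.61, 5.40 and 5.47 in fructose. All fructose arrays lay well above the glucose arrays, of which replicate 3 was lowest. The difference of 0.86 (SE 0.12, 1.81-fold, 95% interval 0.57 to 1.14, adjusted p = 0.13) was the 8th highest of the 18404 genes, although the level in glucose was below the median probe set.

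CTSD encodes cathepsin D, an aspartic protease that breast cancer cells are known to secrete as a precursor. It had 9.59, 9.53 and 9.69 in glucose and 10.15, 10.14 and 10.03 in fructose. The groups were far apart relative to the spread within them, with a difference of 0.50 (SE 0.08, 1.42-fold, adjusted p = 0.13). TPP1, tripeptidyl peptidase, whose loss causes a neuronal ceroid lipofuscinosis, had 7.90, 8.15 and 7.95 in glucose and 8.53, 8.46 and 8.39 in fructose. It differed by 0.46 (SE 0.09, 1.37-fold, adjusted p = 0.15), again without overlap, glucose replicate 2 being the nearest to the fructose arrays.

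CTSC was the protease that stood lower in fructose without overlap. Cathepsin C, or dipeptidyl peptidase I, activates serine proteases of leukocyte granules, and its mRNA had 8.70, 8.47 and 8.68 in glucose and 8.19, 8.41 and 8.12 in fructose. All fructose arrays lay below all glucose arrays, with both replicates 2 close to each other, and the difference was -0.38 (SE 0.11, 1.30-fold lower, adjusted p = 0.23). CTSH, an aminopeptidase among the cathepsins, had 5.56, 5.59 and 5.53 in glucose and 5.90, 5.72 and 5.65 in fructose. The groups were close but did not overlap, and its difference of 0.20 was 0.12 without fructose replicate 1. The remaining 7 proteases overlapped between the sugars. CTSB, CTSL, CTSZ and CTSA, common cysteine and serine proteases of the lysosome, differed by 0.12, 0.02, 0.03 and 0.10. LGMN, the asparaginyl endopeptidase that processes other cathepsins, differed by -0.05, CTSF by -0.02 and the dim CTSK, the collagen-degrading cathepsin of osteoclasts, by 0.22 (95% interval -0.16 to 0.59).

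**Figure D3:**
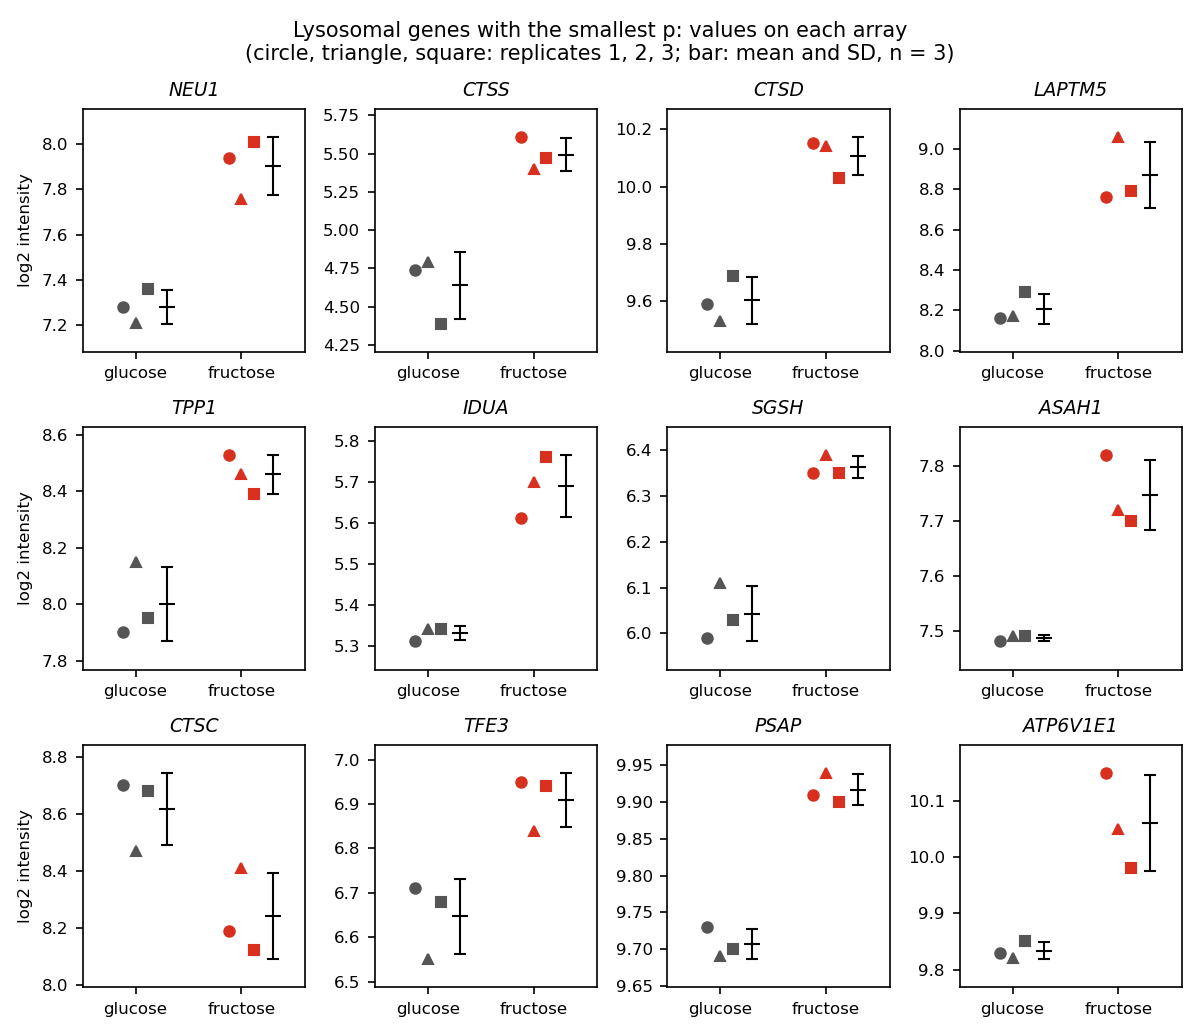
Log2 intensity (y axis, a separate scale for each gene) on each array in glucose and fructose for the 12 lysosomal genes with the smallest p, with replicates 1 to 3 as circle, triangle and square and the bar giving mean and SD (n = 3). In all 12 the groups do not overlap, and CTSC alone is lower in fructose. The 12 were chosen by p in this same comparison, which favours genes with separate groups.

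The 9 glycosidases had a median difference of 0.17. At an unadjusted p under 0.05, 3 were higher (33.3%) and 0 lower, where 8.53% and 5.74% of all genes were. Without overlap 5 were higher (55.6%), where 13% of all genes were. The median was 0.11 without fructose replicate 1. NEU1, the sialidase that trims sialic acids from glycoproteins and is bound to cathepsin A in the lysosome, had 7.28, 7.21 and 7.36 in glucose and 7.94, 7.76 and 8.01 in fructose. Its lowest fructose array stood clear of its highest glucose array. The difference of 0.62 (SE 0.09, 1.54-fold, 95% interval 0.42 to 0.83, adjusted p = 0.13) was the 32nd highest of all genes. Its partner CTSA, the protective protein for NEU1, differed by 0.10 (95% interval -0.09 to 0.28) with overlapping arrays.

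IDUA, the iduronidase that degrades heparan and dermatan sulfate, had 5.31, 5.34 and 5.34 in glucose and 5.61, 5.70 and 5.76 in fructose. The glucose arrays were nearly identical and all lay below fructose, with a difference of 0.36 (SE 0.07, adjusted p = 0.15). HEXA, the alpha subunit of beta-hexosaminidase, which degrades GM2 ganglioside, had 8.01, 8.21 and 8.10 in glucose and 8.41, 8.46 and 8.23 in fructose. Its groups almost touched, at glucose replicate 2 and fructose replicate 3, and it differed by 0.26 (SE 0.09, adjusted p = 0.31). GAA, the acid alpha-glucosidase that degrades glycogen in lysosomes, had 4.91, 4.77 and 4.80 in glucose and 5.21, 4.92 and 4.92 in fructose. It was dim, and fructose replicate 1 alone stood clearly above glucose, so the difference of 0.19 had a 95% interval of -0.05 to 0.43.

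Further members of this class were close between the sugars. The beta-galactosidase GLB1 differed by 0.14, its groups barely apart (7.88 on both glucose replicate 2 and fructose replicate 3). The heparan sulfate enzyme NAGLU differed by 0.17 and the alpha-mannosidase MAN2B1 by 0.10. GLA, the alpha-galactosidase lost in Fabry disease, differed by 0.00 (95% interval -0.20 to 0.19), and the beta-glucuronidase GUSB by -0.03 (95% interval -0.21 to 0.16). GUSB has near-identical pseudogenes. A further 5 probe sets are shared between GUSB and those pseudogenes, were not used, and differed by -0.09 to 0.11.

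All 4 sulfatases had differences above 0, where 56.5% of all genes did, with a median of 0.07. Of the 4, SGSH alone reached an unadjusted p under 0.05 (25%), where 8.53% of all genes were higher. Omitting fructose replicate 2 gave a median of 0.15, and omitting fructose replicate 1 gave 0.02. SGSH, the sulfamidase of heparan sulfate breakdown, had 5.99, 6.11 and 6.03 in glucose and 6.35, 6.39 and 6.35 in fructose. The fructose arrays were tightly grouped above the glucose arrays, with a difference of 0.32 (SE 0.07, 1.24-fold, adjusted p = 0.17). It acts on the same glycan as IDUA and NAGLU. GALNS, a sulfatase of keratan sulfate, had 5.95, 6.03 and 6.13 in glucose and 6.24, 6.02 and 6.09 in fructose, and overlapped. ARSB, which acts on dermatan sulfate, had 6.13, 6.09 and 6.05 in glucose and 6.25, 6.14 and 6.08 in fructose. ARSA, the sulfatidase lost in metachromatic leukodystrophy, was dim and scattered, with 4.76, 4.53 and 4.30 in glucose and 4.70, 4.32 and 4.70 in fructose. The 3 overlapping members differed by 0.08, 0.06 and 0.04, in the order named, and the value of ARSA changed sign when glucose replicate 3, fructose replicate 1 or fructose replicate 3 was omitted.

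The 5 lipid enzymes and activators had the highest median of the 7 role groups, 0.21. At an unadjusted p under 0.05, 3 were higher (60%) and 0 lower, where 8.53% and 5.74% of all genes were. Without overlap 4 were higher (80%), where 13% of all genes were. Most of them act on sphingolipids. ASAH1, the acid ceramidase, had 7.48, 7.49 and 7.49 in glucose and 7.82, 7.72 and 7.70 in fructose, a difference of 0.26 (SE 0.07, adjusted p = 0.21). PSAP, the precursor of the saposins that present sphingolipids to these enzymes, had 9.73, 9.69 and 9.70 in glucose and 9.91, 9.94 and 9.90 in fructose. Both genes were tightly grouped within each sugar, so that small differences parted the groups, in PSAP by 0.21 (SE 0.06, 1.16-fold, adjusted p = 0.25). SMPD1, the acid sphingomyelinase that releases ceramide, had 6.72, 6.74 and 6.81 in glucose and 7.03, 7.22 and 6.85 in fructose. Fructose replicate 3 lay just above the glucose arrays, and the difference of 0.28 (SE 0.10, adjusted p = 0.33) was 0.18 without fructose replicate 2. GALC, the galactosylceramidase, had 7.32, 7.36 and 7.42 in glucose and 7.52, 7.46 and 7.47 in fructose, separate by a narrow margin with a difference of 0.12. LIPA, the acid lipase for cholesteryl esters and triglycerides, was the exception, with overlapping arrays and a difference of -0.05 (95% interval -0.22 to 0.11).

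The 7 membrane proteins were centred near 0 (median 0.02, or -0.01 with every array shifted to a common median, and from 0.01 to 0.03 without 1 array), apart from LAPTM5. LAPTM5 is a lysosomal membrane protein named for its expression in blood cells, where it helps to send antigen receptors for degradation. It had 8.16, 8.17 and 8.29 in glucose and 8.76, 9.06 and 8.79 in fructose. All fructose arrays were higher, replicate 2 most, and the difference of 0.66 (SE 0.10, 1.58-fold, 95% interval 0.43 to 0.89, adjusted p = 0.13) was the 22nd highest of all genes. Without fructose replicate 2 it was 0.56. Its relative LAPTM4A, which is expressed in most tissues, differed by -0.02 (95% interval -0.17 to 0.12).

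SCARB2, the receptor that carries glucocerebrosidase to the lysosome, had 8.18, 8.27 and 8.35 in glucose and 8.13, 8.15 and 7.94 in fructose. The fructose arrays lay just below the glucose arrays, with a difference of -0.19 (95% interval -0.40 to 0.01). MCOLN1, a calcium channel through which lysosomes signal to TFEB, had 7.77, 7.83 and 7.96 in glucose and 7.94, 7.98 and 7.88 in fructose, and overlapped with a difference of 0.08. LAMP2, an abundant structural glycoprotein of the membrane, had 9.79, 9.82 and 9.75 in glucose and 9.87, 9.95 and 9.72 in fructose, so that the fructose arrays lay on both sides of glucose. LAMP1, the other major glycoprotein, differed by 0.00 (95% interval -0.16 to 0.16), and CLN3, lost in juvenile Batten disease, by 0.02 (95% interval -0.13 to 0.16). The 95% intervals of LAMP1, LAMP2, CLN3 and LAPTM4A reached no further than 0.25 from 0 in either direction, and the difference of LAPTM5 lay beyond that.

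CTSS and LAPTM5 are typical of leukocytes, and so markers of those cells were read beside them. The marker list held no antigen-presentation genes, and those were not read here. Of 9 measured leukocyte markers, 7 were dimmer than the median probe set, 0 were higher in fructose at an unadjusted p under 0.05 and LYZ was lower, by -0.30. Their summed intensity was 237 to 260 in glucose and 236 to 267 in fructose. TYROBP and NKG7, the brightest of the markers, weigh most in that sum. PTPRC, the pan-leukocyte phosphatase CD45, had log2 values of 2.22 to 2.46 in glucose and 2.26 to 2.53 in fructose, near the bottom of the array's range. Markers of the line itself were as labelled in part: VIM, CD44, KRT8 and KRT18 were bright and differed by 0.01, 0.07, -0.27 and -0.03, ESR1, PGR and CDH1 were dimmer than the median probe set, and ERBB2 (6.43 in glucose) was above it. KRT8 was lower on each fructose array than on each glucose array (adjusted p = 0.23), and its part in the members' differences was not tested.

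The V-ATPase members differed by -0.16 to 0.23 between the sugars. Of 10 members, 2 were higher (20%) and 0 lower at an unadjusted p under 0.05, where 8.53% and 5.74% of all genes were. Without overlap, 4 were higher (40%) and 1 lower, where 13% and 10% of all genes were. The median was 0.08, beside 0.09 for all 50 members, and 0.05 without fructose replicate 1. ATP6V1E1, a stalk subunit of the cytosolic V1 sector, had 9.83, 9.82 and 9.85 in glucose and 10.15, 10.05 and 9.98 in fructose. The groups were separate, with a difference of 0.23 (SE 0.07, adjusted p = 0.27). ATP6AP1, an accessory protein needed to assemble the pump, had 8.11, 8.03 and 8.20 in glucose and 8.34, 8.28 and 8.27 in fructose, a difference of 0.18 (SE 0.07, adjusted p = 0.35) with groups just apart. ATP6V1D, part of the central rotor, had 9.04, 9.09 and 9.12 in glucose and 8.96, 8.98 and 8.84 in fructose. It lay below glucose on each fructose array, by a difference of -0.16 (95% interval -0.33 to 0.01), opposite to ATP6V1E1. ATP6V0D1, which links the rotor to the membrane ring, had 8.51, 8.43 and 8.62 in glucose and 8.65, 8.67 and 8.64 in fructose, apart by a narrow margin.

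The other pump members differed by 0.14 or less in size. ATP6V1A, the catalytic subunit that binds ATP, differed by -0.14 (95% interval -0.38 to 0.10), and its partner in the head of the pump, ATP6V1B2, by 0.10 (95% interval -0.08 to 0.28). The membrane-sector subunits ATP6V0E1 and ATP6V0A1 differed by 0.08 and 0.02, and ATP6V0E1 was higher on each fructose array than on each glucose array. ATP6V1H, a regulatory subunit, differed by 0.08 and ATP6V1C1, which controls the joining of the sectors, by -0.05. Of the pump's 10 members 7 were above and 3 below their glucose level, or 6 and 4 with every array shifted to a common median.

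**Figure D4:**
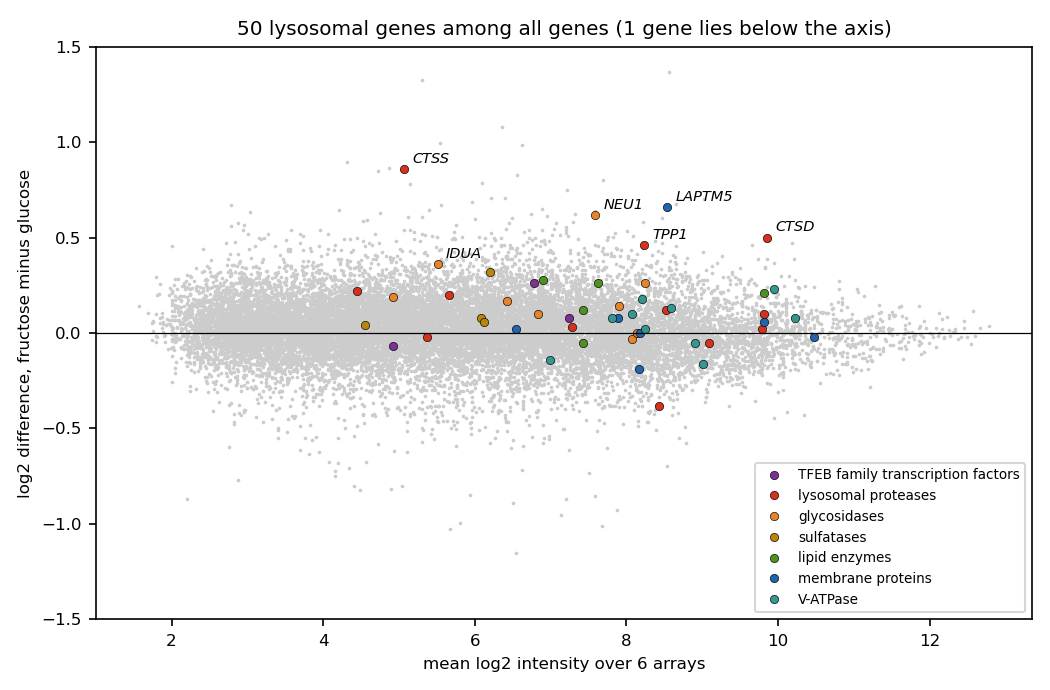
Mean log2 intensity over the 6 arrays (x axis) against the log2 difference, fructose minus glucose (y axis), for all 18404 genes in grey and the 50 lysosomal genes coloured by role; 1 gene lies below the axis. CTSS, LAPTM5, NEU1, CTSD, TPP1 and IDUA are named at the upper edge of the cloud, and most other members lie within it.

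A further 111 symbols of lysosomal and related genes outside the set gave 97 measured genes in 5 lists. None passed over all probe sets (smallest adjusted p 0.13). At an unadjusted p under 0.05, 26 were higher (26.8%) and 5 lower, where 8.53% and 5.74% of all genes were. The median difference of the 97 genes was 0.10. Of these genes 81 were brighter than the median probe set, and dimmer ones were counted as well. Of 19 other enzymes and activators, 5 were higher (26.3%) and 1 lower at that p. The nuclease DNASE2 differed by 0.35, the dim sulfatase ARSG by 0.31 and the carboxypeptidase SCPEP1 by -0.37. Of 21 other membrane and transport proteins, 2 were higher (9.52%, close to the 8.53% of all genes) and 1 lower. The cholesterol exporter NPC1 was at 0.43, the chloride exchanger CLCN7 at 0.27 and LAPTM4B at -0.36. LAPTM4B thus lay on the opposite side of 0 from its relative LAPTM5.

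Of 12 other V-ATPase subunits, 4 were higher (33.3%) and 0 lower at an unadjusted p under 0.05, where 8.53% and 5.74% of all genes were. Among the higher were the stalk subunit ATP6V1G1 (0.26), the rotor subunit ATP6V1F (0.28) and the dim ATP6V0D2 (0.43). ATP6V1G3 (0.28) was counted too, with log2 values of 2.23 to 2.76, near the bottom of the array's range. ATP6V1G1 pairs with ATP6V1E1 in the stalk, and both had separate groups. Of 21 genes for delivery to the lysosome, 5 were higher (23.8%) and 1 lower at the same p. By p, the first was the endoplasmic reticulum protein CLN8, which exports lysosomal enzymes (0.24). SUMF2 (0.30), the paralog of the sulfatase-activating enzyme, and the dim sorting receptor SORL1 (0.31) came next.

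The list of nutrient sensing at the lysosome had the largest share of such genes among the 5 lists. At an unadjusted p under 0.05, 10 of 24 were higher (41.7%) and 2 lower, where 8.53% and 5.74% of all genes were. The 2 lower were ZKSCAN3 (-0.26) and PPP3CB (-0.19), each without overlap. TFEC was among the higher, with log2 values of 2.49 to 2.80, near the bottom of the array's range. Folliculin (FLCN) and its partners FNIP1 and FNIP2 form the complex that activates RRAGC and RRAGD at the lysosome and through them directs mTORC1 towards TFEB and TFE3. FNIP1 had 8.11, 8.25 and 8.15 in glucose and 8.73, 8.66 and 8.92 in fructose. FLCN had 6.40, 6.41 and 6.37 in glucose and 6.73, 6.80 and 6.90 in fructose. All fructose arrays of both genes lay above all glucose arrays, with differences of 0.60 (SE 0.09, adjusted p = 0.13) and 0.42 (SE 0.07, adjusted p = 0.14). FNIP2 had 5.93, 5.96 and 5.98 in glucose and 6.33, 6.39 and 6.27 in fructose, a difference of 0.37 (SE 0.07, adjusted p = 0.14). Among bright probe sets alone 5 of the 81 genes that were bright enough to be tested passed, where 2.5% of the 11059 bright genes did. They were FNIP1 (adjusted p = 0.032), FLCN and FNIP2 (0.034 each) and DNASE2 (0.046), all higher, and SCPEP1 (0.036), which was lower. With an intensity trend and robust variances these 5 genes and 5 others passed, where 2.11% of all genes did. The 5 others were NPC1, ATP6V1F, ATP6V1G1 and RRAGC, which were higher, and LAPTM4B, which was lower. The Rag GTPases, ZKSCAN3, PPP3CB, TFEC and ATP6V1G3 were named after their values were seen. RRAGC differed by 0.36, RRAGD by 0.26 and RRAGB by 0.24, each without overlap, whereas RRAGA lay below glucose on each fructose array, with a difference of -0.13 (95% interval -0.29 to 0.03).

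**Figure D5:**
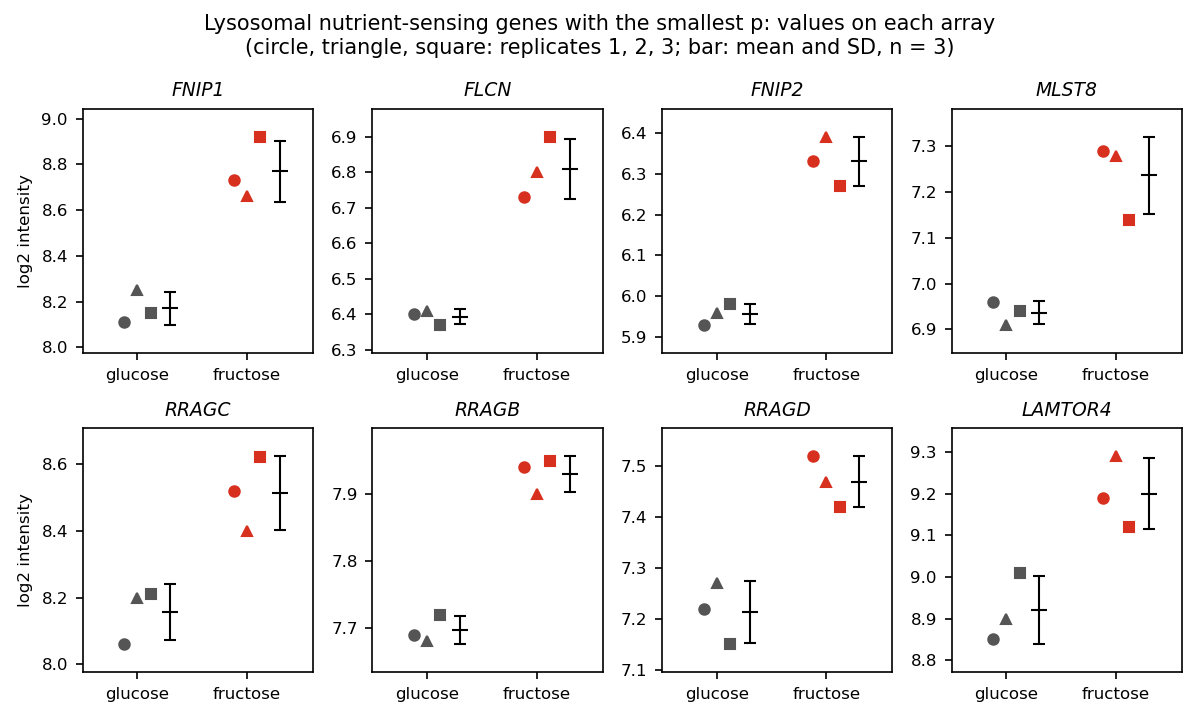
Log2 intensity (y axis, a separate scale for each gene) on each array in glucose and fructose for the 8 lysosomal nutrient-sensing genes with the smallest p, with replicates 1 to 3 as circle, triangle and square and the bar giving mean and SD (n = 3). In all 8 genes each fructose array lies above each glucose array, but they were chosen by p in this same comparison. Of the list's 24 genes, 11 were higher and 3 lower without overlap, where 13% and 10% of all genes were.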

How the data were processed

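RNA of 6 MDA-MB-231 cultures, 3 per sugar, was hybridised to an array each. The deposited values are linear intensities, all above 0 and up to 9287. Per the submitters' processing notes they come from RMA, which corrects background, normalizes between arrays and summarises probes. Version, program, build and filters: not given in the sources used here. For every test log2 was taken, without a pseudocount. Arrays carry no read depth, and their number limits precision (median SE of a log2 difference 0.095).

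Of 32321 rows, 4091 with identifiers below those of annotated probe sets were taken to be controls and left out, which left 28230. The brightest probe set with a single symbol in the platform annotation stood for a gene (18404 genes). Levels of different probe sets are not compared. The test was limma 3.58.1 in R 4.3.3 (fructose minus glucose, two-sided, no covariate), tried first on simulated data, with Benjamini-Hochberg adjustment over all probe sets. Values on each array are given for the TFEB family, for up to 4 members of each other role group by p and for members with separate groups and an unadjusted p under 0.05. Up to 3 genes of each other list are named by p, and a few more were named after their values were seen. The members, lists and motifs were chosen with earlier results of these data known. Replicate numbers did not pair the arrays (correlations of deviations -0.03, -0.02 and -0.05). The 15 alternatives were a replicate block, other normalizations, filters and variance models, and each array left out.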

Additional observations from a re-analysis of the deposited data

How the results depend on the processing

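With the replicate number as a block, 0 members passed the adjusted threshold. At an unadjusted p under 0.05, 13 were higher and 1 lower, where 6.54% and 4.24% of all genes were. ATP6AP1 and CTSH no longer reached that p. The block changed no adjusted call among the members. The adjusted count of 0 became 7 among bright probe sets alone (beside 2.5% of genes). It became 6 with an intensity trend and robust variances (2.11%) and 2 when probe sets of a gene were averaged (0.19%). Fewer features were tested with bright or averaged probe sets, and the cause of the changes in the adjusted count was not tested. The adjusted count was 0 without any single array. The count of members higher at an unadjusted p under 0.05 (15) ran from 11 to 15 under the other settings. There 5.71% to 13.2% of the tested genes were higher. Without 1 array the count ran from 10 to 14, where 6.09% to 9% of all genes were higher. The count lower (1) was 3 after repeated quantile normalization (beside 6.84% of tested genes), among bright probe sets alone (10%) and with an intensity trend (7.45%). It was 2 with the unmoderated test and with averaged probe sets (6.43% each), and 1 to 3 with an array left out (3.82% to 5.97%). The cause of these changes in the lower count was not tested. With an array left out the members' median ran from 0.08 to 0.12, that of the proteases from 0.06 to 0.17 and that of the sulfatases from 0.02 to 0.15, and that of the TFEB family, which has 3 members, from 0.01 to 0.12. Of the 16 members with an unadjusted p under 0.05, 0 changed sign under any of the 15 alternatives, and CTSH kept that p in 4 of them, ATP6AP1 in 8, SMPD1 in 9 and HEXA in 10. Replicates are separately adapted batches of 1 line, so the tests cover the spread between such batches only.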
